A study of Mus musculus with 18 samples.

Results

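PreCFU-E, early progenitors committed to the red cell lineage, were compared between Lepr-Cre mice and KO/FL mice, 2 genotypes that carry the same null copy of Scf in every cell. The 6 libraries are those that the labels assign to this stage and these genotypes, 3 per genotype, of 18 libraries in all. Each library came from the mouse that its label numbers, with replicates A and C male and B female in both genotypes. Every gene of the deposited count table entered the comparison.

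KO/FL mice hold a null Scf copy (KO) over a floxed copy (FL) that Cre recombinase can delete. Lepr-Cre mice are Scf KO/FL;Lepr-Cre in the labels: the same 2 Scf alleles plus Cre expressed from the locus of the leptin receptor, which is known to be active in stromal cells of bone marrow. The contrast therefore adds a deletion in stroma to a null copy that both groups share, and the level of Scf left in either group was not measured here. No group with Lepr-Cre and intact Scf is analysed here, so the Cre itself and the deletion cannot be told apart. FL/FL mice, with floxed copies alone and no null copy, served as a reference level, and CFU-E of the same mice as a second stage. The sources used here give no ages. The study covers both stages in all 3 genotypes, with 9 mice that gave a library of each stage.

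SCF, the product of the gene Kitl, is made by perivascular stromal cells and other niche cells and binds the receptor KIT on haematopoietic progenitors. KIT passes its signal through adaptor proteins to the RAS and ERK kinases, whose activity is read from feedback inhibitors and immediate-early genes, and also acts on cyclins and survival genes. PreCFU-E mature into CFU-E, which rely on erythropoietin and its STAT5 pathway, switch off GATA2 and other early regulators and switch on genes of the red cell membrane and of haem synthesis.

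Total counts were 3541066, 7197389 and 6535737 for KO/FL A, B and C and 7281009, 9325063 and 7788825 for Lepr-Cre A, B and C, so KO/FL A was the shallowest. Replicates of a genotype differed beyond counting error, with chi-square values of 7.75 to 16.9 for each degree of freedom, and none was treated as a copy of another. Erythroid markers summed to between 6461 and 6605 CPM (counts scaled to library size with TMM factors) in KO/FL and between 6508 and 7029 in Lepr-Cre libraries, with 0 of 10 markers at 0. Neutrophil and monocyte markers summed to 1.12 to 5.09 CPM in KO/FL and 1.25 to 1.68 in Lepr-Cre, with 8 of 15 at 0 counts in all 6 libraries, among them Elane and Ctsg. Mast cell, B cell, T and NK cell and macrophage markers each summed to at most 9.28 CPM in any library. Megakaryocyte markers summed to 37.1 to 42.1 CPM in KO/FL and 35.7 to 38.1 in Lepr-Cre, with Ppbp at 0.

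The targeted gene, Kitl (chromosome 10, 100015630 to 100100416, plus strand, GRCm38), had 1 count in KO/FL C and 0 in the other 5 libraries, so these progenitors cannot check what the Cre did in the stroma. Its receptor gene Kit (chromosome 5, 75574916 to 75656722, plus strand) was read at 676, 833 and 653 CPM in KO/FL and at 493, 446 and 383 CPM in Lepr-Cre libraries. All 3 Lepr-Cre libraries lay below all 3 KO/FL libraries, and FL/FL libraries lay at 859, 841 and 740 CPM. Kit was lower by a log2 fold change of -0.71 (SE 0.12, adjusted p = 0.00129, n = 3 per group). The cells had been enriched on KIT protein before the sort. P-values measure the spread between these mice, 3 per genotype. In these bulk libraries fewer cells of a kind and less RNA per cell cannot be told apart.

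edgeR's quasi-likelihood test with Benjamini-Hochberg adjustment, the source of every adjusted p below unless another is named, called 225 of 10309 tested genes at the threshold of 0.05. That is 2.18% of tested genes, 105 higher (1.02%) and 120 lower (1.16%) in Lepr-Cre mice. The changes were mostly modest: the median size was 0.80 on the log2 scale for higher and 0.86 for lower genes, and 36 and 44 of them changed by more than 2-fold. In all 225 the 3 libraries of a genotype lay wholly above the 3 others, which held for 18.5% of all tested genes (9.36% higher and 9.15% lower). A block for the replicate letter raised the count to 840 genes, 8.15% of those tested, 455 higher (4.41%) and 385 lower (3.73%), and all 225 were among them. Without KO/FL B the count was 92 and without Lepr-Cre B it was 122; 76 of the 225 passed in every fit that left out 1 of the 6 libraries. The plot of change against level shows called genes from about 1 CPM upwards, with the larger fold changes at low levels.

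**Figure D1:**
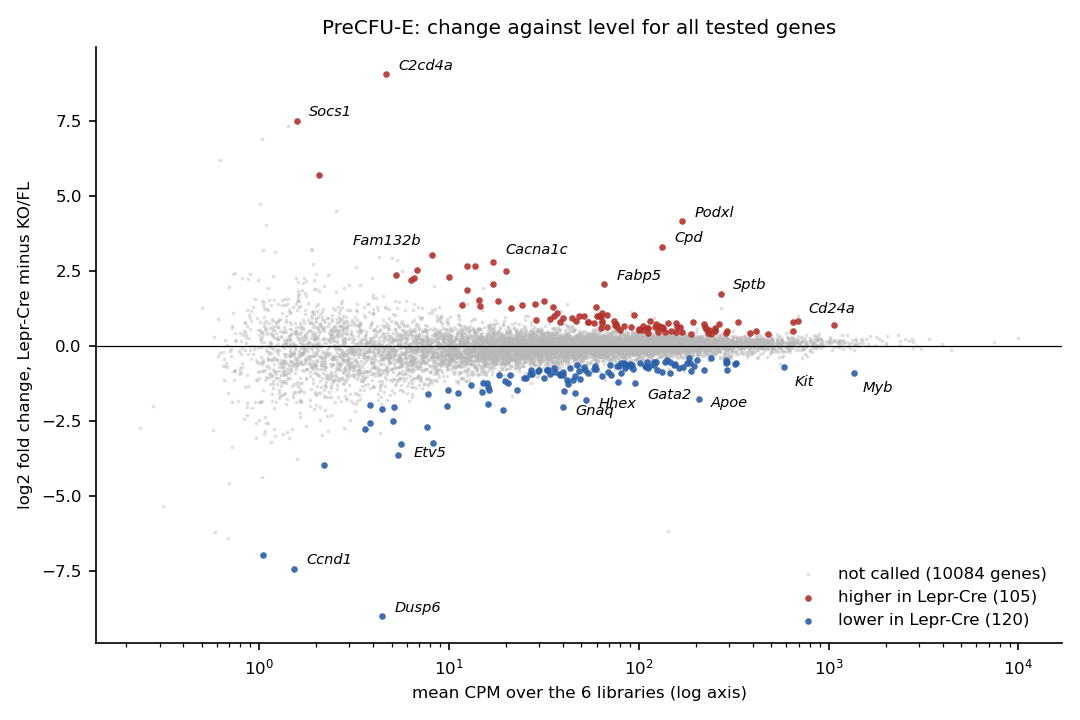
Log2 fold change of Lepr-Cre minus KO/FL PreCFU-E (vertical) against the mean CPM over the 6 libraries (horizontal, log axis) for each of 10309 tested genes. Red points are the 105 higher genes, blue points the 120 lower genes and grey points genes not called; Podxl and Sptb stand out among abundant rises, Kit and Myb among abundant falls.

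Feedback inhibitors and some other targets of ERK were lower in Lepr-Cre than in KO/FL mice. KO/FL mice in turn lay below FL/FL mice over the same list, with a median log2 fold change of -0.59 (KO/FL minus FL/FL). In that contrast 0 of 10309 tested genes were called. Of 20 tested members of the list of ERK feedback and immediate-early genes, 7 fell and 0 rose, beside 1.16% of all tested genes that fell. The list's median log2 fold change of Lepr-Cre minus KO/FL was -0.61 beside 0.00 over all tested genes. This list and those below were chosen with earlier results of these data known, so such shares describe the members and do not test the list. Dusp6 (chromosome 10, 99263231 to 99267489, plus strand), which encodes a phosphatase that removes phosphate from ERK, was read at 6.43, 12.1 and 8.08 CPM in KO/FL libraries, 164 counts in all, and at 0 counts in each Lepr-Cre library. With 3 counts in the whole group taken as the floor for a count of 0, it was at least 74.4-fold lower (adjusted p = 2.49e-06), and FL/FL libraries held 12.6, 15 and 11.2 CPM. The same floor gives the other values marked "at least" below, and it is a convention, not a strict limit. Spred1 (chromosome 2, 117121374 to 117182279, plus strand), an inhibitor of RAS and RAF signalling, stood at 110, 121 and 94.6 CPM in KO/FL and at 39.7, 51.0 and 51.9 CPM in Lepr-Cre libraries. The groups were well apart, with a log2 fold change of -1.19 (SE 0.14, adjusted p = 3.09e-05). The promoters of these 2 genes, the members of the list with the smallest p, are shown as the 250 bases before the RefSeq start site (GRCm38.p6), 5′ to 3′ on the gene's strand, for Dusp6 chr10:99262981-99263230 (plus) and for Spred1 chr2:117120821-117121070 (plus), with capitals for matches to the KLF motif CCNCNCCC.
Dusp6: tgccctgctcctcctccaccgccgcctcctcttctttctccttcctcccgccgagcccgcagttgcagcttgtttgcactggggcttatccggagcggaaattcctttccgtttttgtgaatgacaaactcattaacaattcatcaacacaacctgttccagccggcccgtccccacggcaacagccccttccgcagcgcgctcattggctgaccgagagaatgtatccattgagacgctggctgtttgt
Spred1: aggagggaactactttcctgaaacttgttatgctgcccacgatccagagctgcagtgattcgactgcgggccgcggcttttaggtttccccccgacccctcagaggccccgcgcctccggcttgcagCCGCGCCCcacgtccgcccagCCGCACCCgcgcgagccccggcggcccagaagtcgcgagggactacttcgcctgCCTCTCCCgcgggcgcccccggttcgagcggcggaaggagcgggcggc
Spred1 held 3 matches, at 123, 102 and 48 bases before the start, and Dusp6 held none of the 5 motifs searched on both strands. These were TTCNNNGAA for STAT factors, AGATAA or its variant TGATAA for GATA factors, CCNCNCCC for KLF factors, TGATGNAA for the amino acid response element and CCGGAAGT for ETS factors. Over 8136 promoters of tested genes of the same length, 64.3% held the KLF motif, 6.90% the ETS motif, 8.60% the GATA motif, 5.83% the STAT motif and 1.84% the amino acid response element. The ETS letters, the motif of the factor family that ERK acts on, stood in 2.15% of promoters of lower genes and 4.76% of those of higher genes.

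The other ERK targets fell by varied amounts. Etv5, an ETS transcription factor induced by ERK, stood at 5.59, 15.2 and 9.58 CPM in KO/FL and at 1.52, 1.14 and 0.517 CPM in Lepr-Cre libraries (log2 change -3.27, SE 0.48, adjusted p = 0.000334). Ccnd1, which encodes cyclin D1, was read at 4.75, 3.06 and 1.35 CPM in KO/FL and had 0 counts in all 3 Lepr-Cre mice, which is at least 21.8-fold lower (adjusted p = 0.00126). Both were well below KO/FL in every library. Spry4, a feedback inhibitor of receptor tyrosine kinases, was at 11.5, 9.73 and 8.83 CPM against 2.34, 0 and 0.129 CPM (log2 change -3.64, adjusted p = 0.0287), so Lepr-Cre A held nearly all of the reads left. The immediate-early gene Egr1 stood at 11.7, 22.3 and 10.9 against 2.21, 1.48 and 1.16 CPM (log2 change -3.22, adjusted p = 0.0162). Spred2, a relative of Spred1, fell less, by a log2 fold change of -0.62 (adjusted p = 0.0425), with Lepr-Cre A at 71.0 CPM just under the lowest KO/FL library at 71.6 CPM. The other 13 members did not pass, and 5 of the 20 had a log2 fold change above 0. Ier2, an immediate-early gene, had a log2 fold change of -0.76 (adjusted p = 0.152; 0.0440 with the block) and Junb, a component of AP-1, one of 0.72 (adjusted p = 0.262). Spry4 did not pass without replicates A, B and C of KO/FL (adjusted p 0.0965, 0.132 and 0.102) or replicate C of Lepr-Cre (adjusted p 0.0553), and Egr1 not without replicate B of KO/FL (adjusted p 0.0563) or replicates A, B and C of Lepr-Cre (adjusted p 0.0693, 0.155 and 0.110). Spred2 did not pass without replicates B and C of KO/FL (adjusted p 0.165 and 0.149) or replicates B and C of Lepr-Cre (adjusted p 0.257 and 0.141).

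Most genes of the receptor complex itself did not pass. Of 27 tested members of the list of KIT and its adaptors, 2 fell, 1 rose and the median was -0.13. Over all tested genes 1.16% fell and 1.02% rose. With the block 6 members fell and 2 rose, beside 3.73% and 4.41% of all tested genes. Grb2, the adaptor that couples receptors to RAS, stood at 183, 202 and 176 CPM in KO/FL and at 124, 116 and 128 CPM in Lepr-Cre libraries (log2 change -0.61, SE 0.11, adjusted p = 0.00256). Gab1, a docking protein that also serves other receptors, went the other way, from 48.1, 39.5 and 38.5 CPM to 87.0, 77.4 and 88.1 CPM (log2 change 1.01, SE 0.16, adjusted p = 0.000856). Neither pair of groups overlapped. Nf1, which encodes a brake on RAS, had a log2 fold change of -0.49 (adjusted p = 0.0669; 0.00554 with the block), and Vav1, an exchange factor, one of -0.39 (adjusted p = 0.0808; 0.00861 with the block).

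**Figure D2:**
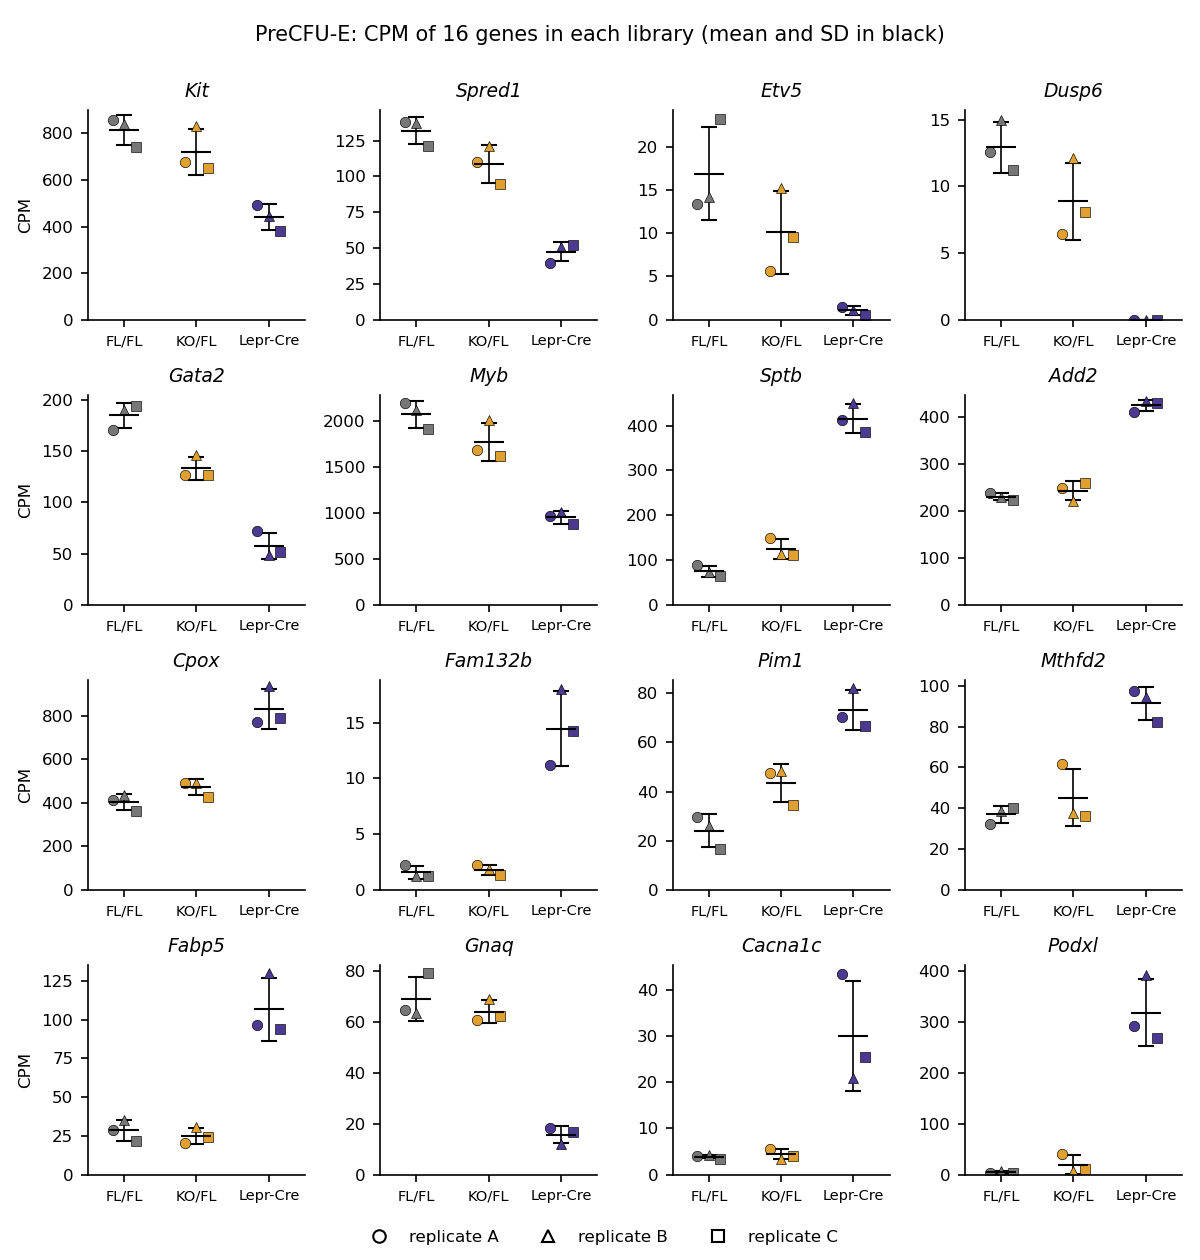
CPM (vertical, from 0) of 16 genes in each PreCFU-E library of FL/FL, KO/FL and Lepr-Cre mice, with circles, triangles and squares for replicates A, B and C and black lines for the mean and SD of 3 libraries. Dusp6 is at 0 in the 3 Lepr-Cre libraries, and KO/FL libraries of Gnaq, Fabp5 and Fam132b overlap those of FL/FL mice.

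Genes of the erythropoietin and STAT5 pathway were higher where they changed. Of 17 tested members 5 rose and 0 fell, beside 1.02% of all tested genes that rose, with a median of 0.61 beside 0.00; with the block 7 rose and 2 fell. Fam132b encodes erythroferrone, the hormone by which red cell precursors lower hepcidin, and lies on chromosome 1 (91366430 to 91374217, plus strand, matched to the annotation by its newer name Erfe). It was read at 2.24, 1.81 and 1.35 CPM in KO/FL and at 11.2, 18 and 14.2 CPM in Lepr-Cre libraries, a log2 fold change of 3.03 (SE 0.50, adjusted p = 0.00105), with FL/FL libraries at 2.20, 1.19 and 1.25 CPM. Socs1, a feedback inhibitor of JAK kinases, had 0 counts in the 3 KO/FL and the 3 FL/FL libraries and 1.79, 5.01 and 2.72 CPM in Lepr-Cre libraries. That is 78 counts and at least 19.1-fold higher (adjusted p = 0.0339). Podxl, a sialomucin of the cell surface, went from 41.1, 7.79 and 10.2 CPM to 292, 393 and 269 CPM (log2 change 4.16, SE 0.68, adjusted p = 0.0403), and KO/FL A stood apart from the other KO/FL libraries. Osm, which encodes the cytokine oncostatin M, rose from 9.50, 6.95 and 12.1 CPM to 16.1, 29.2 and 35.3 CPM (log2 change 1.5, SE 0.34, adjusted p = 0.0159). Pim1, a survival kinase, rose from 47.5, 48.4 and 34.4 CPM to 70.5, 82.3 and 66.9 CPM (log2 change 0.76, SE 0.20), with an adjusted p of 0.050 that lay just inside the threshold.

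The genes of the kinase and of STAT5 themselves did not pass. Jak2, the kinase bound to the erythropoietin receptor, had a log2 fold change of -0.36 (adjusted p = 0.146; 0.00658 with the block). Stat5b had a log2 fold change of -0.33 (adjusted p = 0.131; 0.00603 with the block), and Serpina3g, a serpin gene, one of 2.94 from 0.839, 2.5 and 0 CPM to 10.1, 9.57 and 7.11 CPM (adjusted p = 0.0904; 0.0147 with the block). Of the 5 rises only Fam132b passed in all 6 fits that left out 1 library. Podxl did not pass without replicates B and C of KO/FL (adjusted p 0.139 and 0.127) or replicates A, B and C of Lepr-Cre (adjusted p 0.111, 0.143 and 0.10), nor Osm without replicate B of KO/FL (adjusted p 0.113) or replicates B and C of Lepr-Cre (adjusted p 0.0776 and 0.116). Socs1 did not pass without replicates A, B and C of KO/FL (adjusted p 0.0837, 0.154 and 0.116) or replicates A, B and C of Lepr-Cre (adjusted p 0.0683, 0.199 and 0.0855). Pim1 did not pass without replicates A, B and C of KO/FL (adjusted p 0.0716, 0.0927 and 0.193) or replicates A, B and C of Lepr-Cre (adjusted p 0.113, 0.226 and 0.0795). STAT letters stood in 5.95% of promoters of higher genes, 7.53% of those of lower genes and 5.83% of all.

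Early progenitor regulators were lower. Of 23 tested members of the list of stem and early progenitor regulators, 6 fell and 0 rose, beside 1.16% of all tested genes that fell. The log2 fold change was below 0 for all 23, and the median was -0.84. With the block 10 fell, beside 3.73% of all tested genes. Gata2 (chromosome 6, 88193891 to 88207032, plus strand), the factor that GATA1 replaces during maturation, stood at 127, 146 and 127 CPM in KO/FL and at 71.7, 48.5 and 51.5 CPM in Lepr-Cre libraries. Its log2 fold change was -1.22 (SE 0.14, adjusted p = 1.69e-05), and FL/FL libraries were higher than both, at 171, 191 and 194 CPM. Hhex, a homeobox factor of early progenitors, fell from 52.0, 95.3 and 98.0 CPM to 18.6, 25.5 and 27 CPM (log2 change -1.79, SE 0.22, adjusted p = 0.000149). Mn1, a transcriptional coactivator, was low in both groups, at 8.67, 7.65 and 9.58 against 1.38, 1.48 and 1.68 CPM (log2 change -2.5, SE 0.43, adjusted p = 0.00163). Angpt1, the ligand of TIE2, fell from 51.2, 54.2 and 75.1 CPM to 17.5, 14.5 and 31.6 CPM (log2 change -1.51, SE 0.27, adjusted p = 0.00428). These 4 genes passed without each library in turn.

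The survival gene Bcl2 and the kinase gene Prkch also fell, by -1.22 (adjusted p = 0.0231) and -0.65 (adjusted p = 0.0396). Bcl2 was uneven among KO/FL libraries, at 20.7, 44.8 and 20.5 CPM, and did not pass without replicate B of KO/FL (adjusted p 0.305) or replicates A and B of Lepr-Cre (adjusted p 0.0752 and 0.135). Prkch did not pass without replicates B and C of KO/FL (adjusted p 0.186 and 0.101) or replicates A and B of Lepr-Cre (adjusted p 0.176 and 0.190). Ikzf2 and Sox4, both transcription factor genes, had log2 fold changes of -1.24 (adjusted p = 0.0682; 0.000253 with the block) and -0.81 (adjusted p = 0.0917; 0.0185 with the block). Bcl2 was the 1 member called of 9 tested BCL2 family genes, and Bcl2l1, the survival gene that erythropoietin induces, had a log2 fold change of 0.61 (adjusted p = 0.447).

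Erythroid transcription factors moved little apart from Myb and Sox6. Of 16 tested members 1 rose and 1 fell with a median of -0.03, and 2 and 3 with the block, and of 12 members of the GATA and TAL1 list Gata2 alone was called. Myb (chromosome 10, 21124935 to 21160984, minus strand), which maintains progenitor proliferation, was the most abundant called gene of the comparison, at 1685, 2006 and 1615 CPM in KO/FL and 969, 1010 and 875 CPM in Lepr-Cre libraries. Its fall (log2 change -0.89, SE 0.11, adjusted p = 6.19e-05) left the groups far apart, and FL/FL libraries, at 2192, 2117 and 1910 CPM, overlapped those of KO/FL mice. Sox6, which silences fetal globin, rose from 7.27, 13.6 and 18.7 CPM to 28.7, 40.2 and 36.7 CPM (log2 change 1.38, adjusted p = 0.00969), but not without replicate B of KO/FL (adjusted p 0.0520) or replicate B of Lepr-Cre (adjusted p 0.0654). Tal1 had a log2 fold change of 0.38 (adjusted p = 0.0668; 0.000549 with the block) and Nfe2 one of -0.58 (adjusted p = 0.0569; 0.000894 with the block).

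Genes of the membrane skeleton, the spectrin and ankyrin mesh under the red cell membrane, were higher where they changed. Of 14 tested members 3 rose and 0 fell, beside 1.02% of all tested genes that rose, with a median of 0.34. With the block 7 rose, beside 4.41% of all tested genes. Sptb (chromosome 12, 76580488 to 76710547, minus strand), which encodes beta spectrin, had the smallest adjusted p of the 10309 tested genes, 3.86e-08, at 150, 113 and 110 CPM in KO/FL and 412, 450 and 385 CPM in Lepr-Cre libraries. Its log2 fold change was 1.75 (SE 0.13), and FL/FL libraries lay lower still, at 87.9, 72.6 and 64.0 CPM. Add2 (chromosome 6, 86028681 to 86124409, plus strand), beta adducin, which caps actin at the spectrin junctions, stood at 250, 221 and 259 against 412, 434 and 431 CPM (log2 change 0.81, SE 0.10, adjusted p = 6.19e-05). The FL/FL libraries of Add2, at 239, 229 and 224 CPM, were near those of KO/FL mice. The promoters of this pair, which rose together, are shown as 250 bases before the RefSeq start (GRCm38.p6), for Sptb chr12:76710548-76710797 (minus) and for Add2 chr6:86028431-86028680 (plus), 5′ to 3′ on the gene's strand, with KLF motif matches in capitals.
Sptb: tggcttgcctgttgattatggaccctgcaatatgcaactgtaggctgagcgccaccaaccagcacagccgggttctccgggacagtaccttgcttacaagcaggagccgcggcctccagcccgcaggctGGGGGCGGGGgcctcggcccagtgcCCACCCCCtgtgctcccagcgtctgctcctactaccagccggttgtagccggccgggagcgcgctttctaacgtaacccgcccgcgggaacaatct
Add2: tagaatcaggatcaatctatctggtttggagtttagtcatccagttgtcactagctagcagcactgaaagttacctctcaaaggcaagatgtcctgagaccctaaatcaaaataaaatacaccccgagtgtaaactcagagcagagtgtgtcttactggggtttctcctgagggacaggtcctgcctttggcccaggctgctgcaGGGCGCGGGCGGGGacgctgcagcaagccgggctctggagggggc
Sptb held 3 matches, at 121, 119 and 96 bases before the start, of which the first and second overlap, and Add2 held 2 that overlap, at 45 and 39 bases. The KLF motif stood in 69.0% of promoters of higher genes, 71.0% of those of lower genes and 64.3% of all, so its presence in both is a description of these windows. The GATA letters stood in 13.1% of promoters of higher and 9.68% of those of lower genes.

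Ank1, erythroid ankyrin, rose from 592, 532 and 497 CPM to 716, 876 and 699 CPM (log2 change 0.50, adjusted p = 0.0218), but not without replicates B and C of KO/FL (adjusted p 0.101 and 0.0823) or replicate B of Lepr-Cre (adjusted p 0.147). Dmtn, dematin, was at 1.96, 9.60 and 6.43 against 25.2, 22 and 25.7 CPM (log2 change 1.95, adjusted p = 0.0609; 0.000121 with the block). Its KO/FL libraries were the uneven side. Of 19 tested blood-group and surface protein genes 3 rose and 0 fell, with a median of 0.14, Add2 being shared with the skeleton list. With the block 7 rose. The shares over all tested genes were 1.02%, and 4.41% with the block. Rhag, the Rh-associated glycoprotein, rose from 145, 95.5 and 106 CPM to 212, 194 and 187 CPM (log2 change 0.78, SE 0.15, adjusted p = 0.00416). Cldn13, a claudin of mouse erythroblasts, rose from 26, 21.6 and 23.8 CPM to 36.5, 44.7 and 71.4 CPM (log2 change 1.10, adjusted p = 0.0125), but not without replicate B of KO/FL (adjusted p 0.0772) or replicate C of Lepr-Cre (adjusted p 0.141). The transferrin receptor gene Tfrc had a log2 fold change of 0.45 (adjusted p = 0.126; 6.54e-06 with the block).

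Haem synthesis genes were higher where they changed. Of 18 tested members 3 rose and 0 fell, beside 1.02% of all tested genes that rose, with a median of 0.31. With the block 6 rose, beside 4.41% of all tested genes. Cpox, coproporphyrinogen oxidase, was the most abundant of them, at 492, 493 and 429 CPM in KO/FL and 771, 939 and 789 CPM in Lepr-Cre libraries (log2 change 0.82, SE 0.11, adjusted p = 0.000149). The mitochondrial transporter gene Abcb10 rose by 0.67 (adjusted p = 0.0125), but not without replicate B of KO/FL (adjusted p 0.0763) or replicate A of Lepr-Cre (adjusted p 0.0768). Alad, an early enzyme of the pathway, had a larger log2 fold change of 1.26 and did not pass (adjusted p = 0.107), with KO/FL libraries at 124, 128 and 228 CPM. Among 22 iron handling genes 3 rose and 0 fell, with a median of 0.07: Fam132b, Ftl1, ferritin light chain, by 0.49 (adjusted p = 0.0157), and Glrx5, of iron-sulphur cluster assembly, by 0.48 (adjusted p = 0.0370). With the block 6 of the 22 rose, beside the same shares of all tested genes, 1.02% without and 4.41% with the block. Ftl1 did not pass without replicate B of KO/FL (adjusted p 0.0662) or replicates A and C of Lepr-Cre (adjusted p 0.0730 and 0.0664), nor Glrx5 without replicates A and B of KO/FL (adjusted p 0.116 and 0.189) or replicates B and C of Lepr-Cre (adjusted p 0.0957 and 0.228).

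Globin genes were near the floor at this stage. Of the 10 globin genes with a row, 2 were tested, and neither passed: Hba-a1 was at 0.559, 0.973 and 1.05 CPM in KO/FL and 4.55, 6.49 and 5.82 CPM in Lepr-Cre libraries (log2 change 2.64, SE 0.88, adjusted p = 0.139; 0.0473 with the block). Alpha and beta globin genes have near-identical copies, between which the counting could split reads. Among 23 late erythroblast genes 3 rose and 1 fell, beside 1.02% and 1.16% of all tested genes, with a median of 0.20. Trim10, named for late erythroid cells, rose from 1.68, 0.556 and 4.34 CPM to 9.10, 8.20 and 15.3 CPM (log2 change 2.28, adjusted p = 0.0425). Hemgn, hemogen, rose by 0.63 (adjusted p = 0.0160) and Cpeb4, a translation regulator of late erythroblasts, by 1.28 (adjusted p = 0.0425), while Optn, an autophagy receptor, fell by a log2 fold change of -0.55 (adjusted p = 0.00304). Trim10 did not pass without replicates A and B of KO/FL (adjusted p 0.107 and 0.179) or replicates A, B and C of Lepr-Cre (adjusted p 0.0876, 0.0764 and 0.227), nor Hemgn without replicates A and B of KO/FL (adjusted p 0.0721 and 0.106) or replicate B of Lepr-Cre (adjusted p 0.116). Cpeb4 did not pass without replicates B and C of KO/FL (adjusted p 0.226 and 0.0801) or replicates A, B and C of Lepr-Cre (adjusted p 0.113, 0.137 and 0.0952).

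Some genes of serine and folate metabolism and of the amino acid response, whose transcription factor is ATF4, were higher. Of 31 tested members 4 rose and 0 fell, beside 1.02% of all tested genes that rose. In 22 the log2 fold change was above 0, and the median was 0.22. With the block 8 rose, beside 4.41% of all tested genes. Mthfd2 (chromosome 6, 83305691 to 83325908, minus strand), the mitochondrial folate enzyme, went from 61.5, 37.8 and 36.4 CPM to 97.6, 94.8 and 82.4 CPM (log2 change 1.04, SE 0.19, adjusted p = 0.00246). KO/FL A was the highest of its group and still below every Lepr-Cre library. Atf4 itself stood at 171, 157 and 195 against 249, 261 and 307 CPM (log2 change 0.64, SE 0.12, adjusted p = 0.00287), and Aars, an alanyl-tRNA synthetase, at 231, 197 and 174 against 295, 328 and 285 CPM (log2 change 0.59, adjusted p = 0.00531). Shmt2, the serine hydroxymethyltransferase of mitochondria, rose by 0.50 (adjusted p = 0.0281), but not without replicates B and C of KO/FL (adjusted p 0.120 and 0.109) or replicates A and B of Lepr-Cre (adjusted p 0.111 and 0.154). The tryptophanyl-tRNA synthetase gene Wars had a log2 fold change of 0.38 (adjusted p = 0.115; 0.0115 with the block). The amino acid response element stood in 4.76% of promoters of higher genes, 2.15% of those of lower genes and 1.84% of all.

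Cell cycle genes showed few calls without the block and more with it. So did all tested genes, of which 1.02% rose without the block and 4.41% with it. Of 35 tested genes of DNA replication and S phase 2 rose and 0 fell, 31 had a log2 fold change above 0, and the median was 0.18; with the block 11 rose. Rrm2, the ribonucleotide reductase subunit that limits nucleotide supply, rose from 150, 156 and 121 CPM to 230, 236 and 272 CPM (log2 change 0.79, SE 0.12, adjusted p = 0.000371). Ccne1, cyclin E1, rose from 103, 75.9 and 101 CPM to 165, 154 and 144 CPM (log2 change 0.73, SE 0.13, adjusted p = 0.00271), and both passed without each library in turn. Of 20 genes of G1 control 2 rose and 1 fell, and 5 and 1 with the block: Ccne1, E2f4, a partner of the retinoblastoma family, by 0.42 (adjusted p = 0.0254), and Ccnd1, described above. Of 30 mitosis genes Aurka rose, by 0.53 (adjusted p = 0.0447), and with the block 5 did. Of 53 replication-dependent histone genes Hist3h2ba rose, by 2.31 (adjusted p = 0.0286), and with the block 8 did, members of gene clusters whose near copies can share reads. E2f4 did not pass without replicates A and B of KO/FL (adjusted p 0.106 and 0.102) or replicates B and C of Lepr-Cre (adjusted p 0.0980 and 0.0952), nor Hist3h2ba without replicates A, B and C of KO/FL (adjusted p 0.109, 0.165 and 0.0691) or replicates A and C of Lepr-Cre (adjusted p 0.0628 and 0.181). Aurka did not pass without replicates A, B and C of KO/FL (adjusted p 0.0721, 0.164 and 0.114) or replicates A, B and C of Lepr-Cre (adjusted p 0.174, 0.0988 and 0.0841).

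Signalling and transport genes outside the KIT pathway gave some of the sharpest differences. Gnaq (chromosome 19, 16132831 to 16387463, plus strand), the G protein alpha subunit that activates phospholipase C, fell from 60.7, 69.1 and 62.3 CPM to 18.2, 12.1 and 16.9 CPM (log2 change -2.03, SE 0.19, adjusted p = 8.76e-07). FL/FL libraries, at 64.7, 63.5 and 79.1 CPM, were near those of KO/FL mice. Cacna1c, a voltage-gated calcium channel, rose from 5.59, 3.48 and 4.04 CPM to 43.4, 21 and 25.4 CPM (log2 change 2.80, SE 0.36, adjusted p = 6.19e-05). Both belong to the list of calcium, G alpha and PKC signalling, where 1 of 34 tested genes rose and 2 fell with a median of -0.19. With the block 3 rose and 6 fell. Over all tested genes 1.02% rose and 1.16% fell, and 4.41% and 3.73% with the block. Prkcq, a protein kinase C, was at 34.9, 33.5 and 28.1 against 53.4, 56.1 and 45.1 CPM and did not pass (log2 change 0.68, adjusted p = 0.0656; 0.0117 with the block). Fabp5 (chromosome 3, 10012548 to 10016607, plus strand), a fatty acid binding protein, rose from 20.4, 30.5 and 24.4 CPM to 96.4, 130 and 93.8 CPM (log2 change 2.07, SE 0.20, adjusted p = 1.73e-06). Apoe, apolipoprotein E, fell from 214, 376 and 368 CPM to 77.5, 104 and 103 CPM (log2 change -1.75, SE 0.21, adjusted p = 0.00105). They were the 2 called of 19 tested genes of lipid transport and desaturation, where 3 rose and 1 fell with the block. In cholesterol synthesis 0 of 25 genes passed by edgeR (2 at an unadjusted p under 0.05), beside 2.18% of all tested genes.

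Several receptor genes changed, more of them downwards. Of 26 tested cytokine and growth-factor receptors 5 fell, Kit among them, and 1 rose, with a median of -0.30. Over all tested genes 1.16% fell and 1.02% rose. With the block 7 receptors fell and 2 rose, beside 3.73% and 4.41% of all tested genes. Il1rl1, the receptor of interleukin 33, fell from 171, 170 and 139 CPM to 105, 83.2 and 85.5 CPM (log2 change -0.81, SE 0.15, adjusted p = 0.00366). Il17ra fell from 179, 246 and 184 CPM to 118, 132 and 118 CPM (log2 change -0.73, SE 0.12, adjusted p = 0.00120). Ifngr1 fell by a log2 fold change of -0.54 (adjusted p = 0.0128) and Tgfbr2, a TGF-beta receptor, by one of -0.82 (adjusted p = 0.0375), beside Kit. Ptger3, a prostaglandin E receptor, rose from 37.7, 32.5 and 27.1 CPM to 64.5, 70.3 and 58.3 CPM (log2 change 1.0, SE 0.21, adjusted p = 0.00871), with FL/FL libraries lower than both at 19.2, 14.8 and 11.4 CPM. Ifngr1 did not pass without replicates B and C of KO/FL (adjusted p 0.0567 and 0.0691) or replicates A and C of Lepr-Cre (adjusted p 0.103 and 0.0523), nor Tgfbr2 without replicates A and B of KO/FL (adjusted p 0.107 and 0.193) or replicates B and C of Lepr-Cre (adjusted p 0.167 and 0.145), nor Ptger3 without replicate B of Lepr-Cre (adjusted p 0.0553).

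Adhesion genes gave 1 rise, Podxl, and 2 falls of 20 tested, and 2 and 3 with the block. Amigo2, a leucine-rich adhesion protein, fell from 22.1, 43.1 and 29.0 CPM to 5.93, 10.4 and 5.17 CPM (log2 change -2.14, SE 0.29, adjusted p = 0.000149). Selplg, the ligand of P-selectin, fell by a log2 fold change of -0.79 (adjusted p = 0.0426), but not without replicates A, B and C of KO/FL (adjusted p 0.0515, 0.180 and 0.102) or replicates A and B of Lepr-Cre (adjusted p 0.184 and 0.115). The integrin gene Itga4, which anchors progenitors to the niche, had a log2 fold change of -0.39 (adjusted p = 0.122; 6.41e-05 with the block). Of 180 tested solute carriers 3 rose and 4 fell with a median of 0.00, and with the block 12 rose and 8 fell. Over all tested genes 1.02% rose and 1.16% fell, and 4.41% and 3.73% with the block. The counts alone therefore do not set solute carriers apart. Slc29a1, a nucleoside transporter, rose from 106, 101 and 91.6 CPM to 152, 170 and 150 CPM (log2 change 0.66, SE 0.12, adjusted p = 0.00304). Slc22a3, an organic cation transporter, fell from 179, 209 and 185 CPM to 114, 104 and 86.4 CPM (log2 change -0.91, SE 0.12, adjusted p = 8.20e-05), and Slc8a1, a sodium-calcium exchanger, fell by a log2 fold change of -1.13 (adjusted p = 0.00105). Slc39a8 (1.11) and Slc16a6 (0.60) rose and Slc24a3 (-1.25) and Slc25a23 (-1.06) fell, with adjusted p of 0.0115, 0.0112, 0.0271 and 0.0162. Slc39a8 did not pass without replicate B of KO/FL (adjusted p 0.0979), Slc16a6 without replicate B of KO/FL (adjusted p 0.0680) or replicates B and C of Lepr-Cre (adjusted p 0.0684 and 0.0695), or Slc25a23 without replicate B of KO/FL (adjusted p 0.141) or replicate A of Lepr-Cre (adjusted p 0.103). Slc24a3 did not pass without replicates A, B and C of KO/FL (adjusted p 0.0818, 0.0530 and 0.104) or replicates B and C of Lepr-Cre (adjusted p 0.105 and 0.114).

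Several lists held few calls or none. Of 79 tested ribosomal protein genes, 77 respiratory chain genes, 39 Rab GTPase genes, 25 interferon response genes and 16 p53 targets, 0 passed by edgeR. Over all tested genes 2.18% passed, so lists of these lengths would hold few calls or none at that share, and a count of 0 does not set them apart. Their medians were -0.04, 0.04, 0.00, -0.20 and 0.07. At an unadjusted p under 0.05 there were 0, 1, 5, 3 and 2, beside 1424 of all tested genes. With the block 0, 0, 1, 3 and 0 of them passed. Of 29 genes of ribosome biogenesis and 20 heat shock and chaperone genes 0 passed by edgeR (8 and 3 at an unadjusted p under 0.05). With the block 7 and 6 rose, beside 4.41% of all tested genes. In ribosome biogenesis Nolc1, a nucleolar chaperone, had a log2 fold change of 0.36 (adjusted p = 0.113; 0.000120 with the block), and among the chaperones Hsp90aa1 one of 0.37 (adjusted p = 0.127; 2.09e-05 with the block). Of 23 glycolysis genes Pdk1, a pyruvate dehydrogenase kinase, rose from 81.6, 79.1 and 84.4 CPM to 138, 133 and 117 CPM (log2 change 0.66, SE 0.13, adjusted p = 0.00531), and 5 rose with the block. The plot of list members shows the erythropoietin and membrane lists at the top of the order by median and the ERK and early progenitor lists at the bottom.

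**Figure D3:**
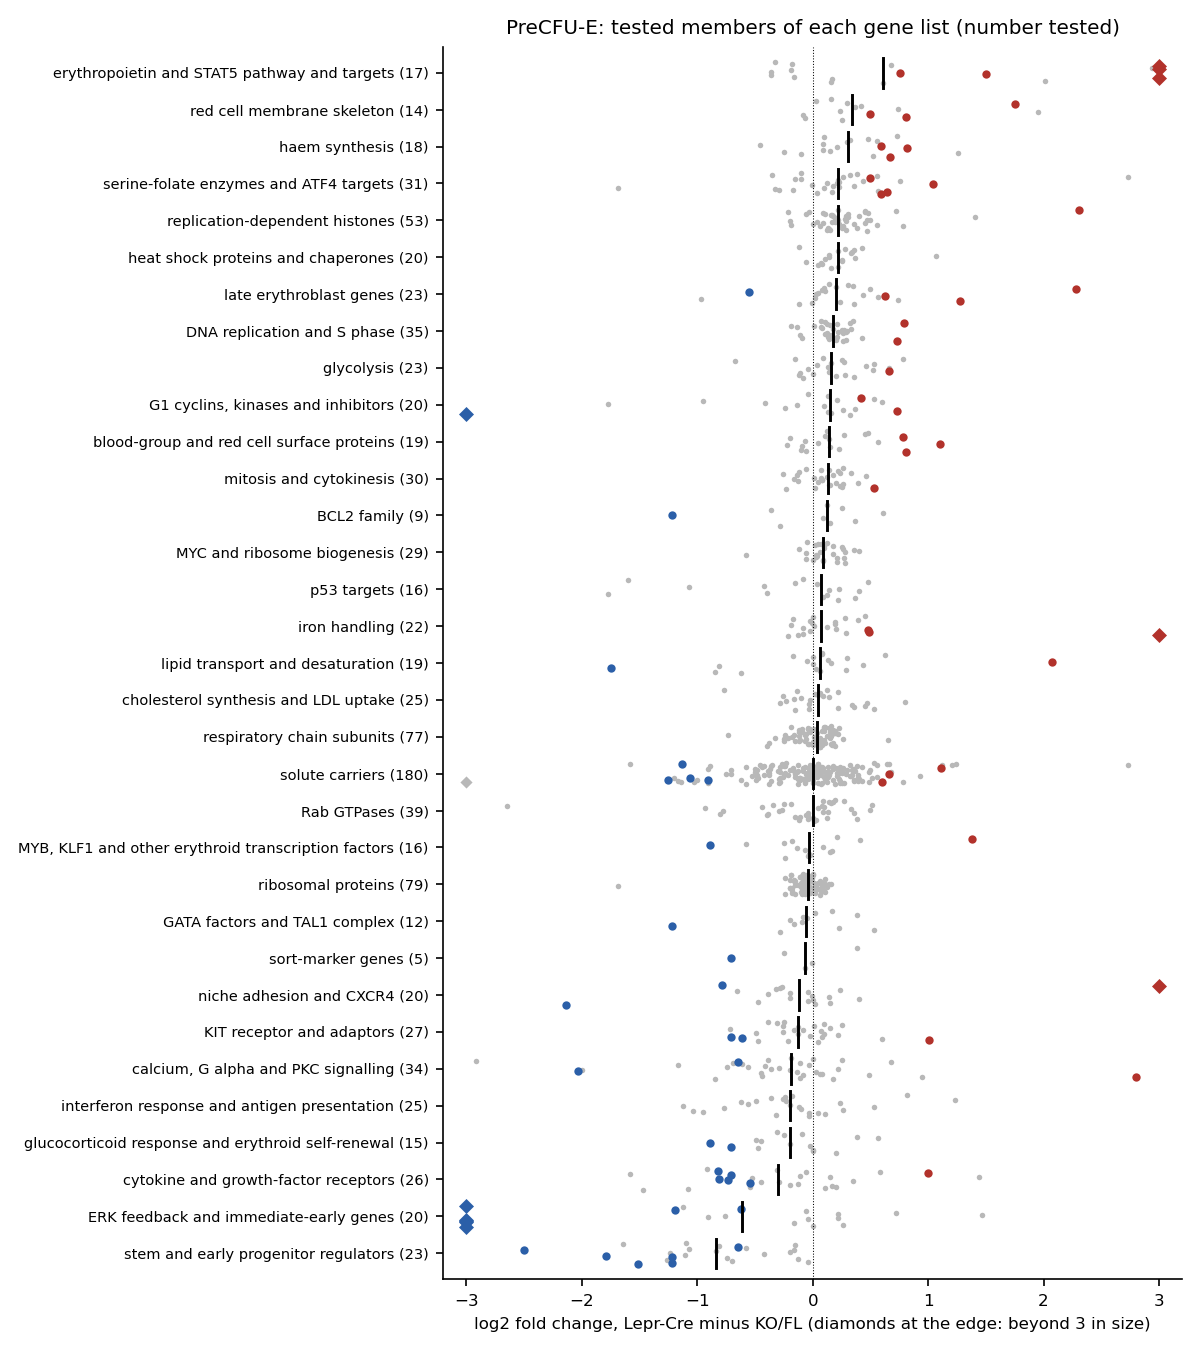
Log2 fold change of Lepr-Cre minus KO/FL PreCFU-E (horizontal) for the tested members of the gene lists with at least 3 tested members (rows, ordered by median; number tested in brackets), with red for higher, blue for lower and grey for genes not called, black bars for medians, and diamonds for values beyond 3 in size. Medians run from 0.61 for the erythropoietin and STAT5 list to -0.84 for early progenitor regulators.

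Outside the lists, C2cd4a, which encodes a C2-domain protein, had 0 counts in the KO/FL and FL/FL libraries and 8.13, 9.57 and 10.3 CPM in Lepr-Cre libraries. Its 223 counts (chromosome 9, 67830489 to 67832330, minus strand) made it at least 54.6-fold higher (adjusted p = 0.000458). Elovl7, a fatty acid elongase, went to 0 counts from 0.839, 3.34 and 2.10 CPM, at least 18.6-fold lower (adjusted p = 0.0369). Cpd, carboxypeptidase D, rose from 40.5, 14.9 and 20.4 CPM to 290, 286 and 148 CPM (log2 change 3.32, SE 0.47, adjusted p = 0.0195), and Rgcc, a regulator of the cell cycle, from 4.47, 0.973 and 4.94 CPM to 22.6, 14 and 28.3 CPM (log2 change 2.68, SE 0.49, adjusted p = 0.00287). Scin, which severs actin, fell from 12.6, 11.1 and 15.9 CPM to 3.72, 0.570 and 1.94 CPM (log2 change -2.69, SE 0.42, adjusted p = 0.000645), and Pcdh7, a protocadherin, from 23.8, 27.7 and 24.7 CPM to 8.96, 5.92 and 5.04 CPM (log2 change -1.94, SE 0.27, adjusted p = 0.000162). Among abundant genes the surface glycoprotein gene Cd24a rose from 545, 442 and 499 CPM to 795, 971 and 896 CPM (log2 change 0.84, SE 0.11, adjusted p = 8.74e-05), and the scaffold gene Iqgap2 fell from 397, 378 and 336 CPM to 223, 208 and 203 CPM (log2 change -0.81, SE 0.10, adjusted p = 6.49e-05). Elovl7 did not pass without replicates B and C of KO/FL (adjusted p 0.179 and 0.0877) or replicates A, B and C of Lepr-Cre (adjusted p 0.113, 0.143 and 0.115), nor Cpd without replicates B and C of KO/FL (adjusted p 0.0664 and 0.102) or replicate B of Lepr-Cre (adjusted p 0.0605).

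Of the markers of other cell types, Plvap of endothelium was the 1 that passed. Endothelial markers summed to 32.1 to 60.6 CPM in KO/FL and 21.4 to 31.7 CPM in Lepr-Cre libraries, with Cdh5 at 0, and Plvap fell from 20.1, 30.5 and 31.6 CPM to 12.8, 9.11 and 14.7 CPM (log2 change -1.18, adjusted p = 0.0174). Plvap did not pass without replicates B and C of KO/FL (adjusted p 0.0902 and 0.0785) or replicates A and B of Lepr-Cre (adjusted p 0.0533 and 0.117). Stromal markers summed to 7.18 to 15 CPM in KO/FL and 12.8 to 26.9 CPM in Lepr-Cre libraries, ranges that overlap, with Col1a1, Adipoq, Lum and Dcn at 0. The 2 stromal markers tested had opposite signs and neither passed: Col1a2 had a log2 fold change of 1.46 (adjusted p = 0.240; 0.00249 with the block) and Pdgfrb one of -1.75 (adjusted p = 0.152). The part of such RNA in the results was not tested.

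Whether the called genes are those that change with maturation was described with the step from PreCFU-E to CFU-E in FL/FL mice, whose libraries enter the spread but not the difference between Lepr-Cre and KO/FL. That step was called in 1963 of 10732 genes (18.3%), 965 higher (8.99%) and 998 lower (9.30%) in CFU-E. Of the 105 genes higher in Lepr-Cre PreCFU-E, 61 (58.1%) were higher in CFU-E, 9 were lower and 35 were not called in the step. Of the 120 lower genes, 75 (62.5%) were lower in CFU-E, 3 were higher and 42 were not called. Among all 10309 tested genes the shares were 9.03% higher and 9.67% lower.

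The lists differed in their place on the step. Haem synthesis had 11 of 18 tested genes called higher in CFU-E and 0 lower, the membrane skeleton 8 and 3 of 14, and DNA replication 24 and 0 of 35, while 16 of 23 early progenitor regulators were lower and 0 higher. For example, Sptb had a log2 fold change of 3.32 in the step (adjusted p = 7.91e-12), Add2 one of 1.24, Cpox one of 0.88, and Gata2 one of -2.37 (adjusted p = 6.16e-05). Members of other lists changed between genotypes with no call in the step. Of the ERK targets, Dusp6 (-1.45, adjusted p = 0.0955), Spred1 (-0.36, 0.0898), Etv5 (-0.81, 0.233) and Ccnd1 (-0.52, 0.744) were not called there, whereas Egr1 was (-3.18, 0.000141). Fam132b (0.12, adjusted p = 0.915), Pim1 (0.04, 0.933), Osm (-0.32, 0.625) and Podxl (-0.48, 0.811) were not called in the step, nor were Atf4 (0.22, 0.238), Shmt2 (-0.07, 0.736), Aars (0.21, 0.240) and Mthfd2 (0.51, 0.0508). Gnaq (-0.15, adjusted p = 0.808) and Cacna1c (0.78, 0.110) were not called there either. A missing call does not show that a gene kept its level in the step.

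Of the called genes 12 went against the step, and they were picked out after their values were seen. Ptpn13, a tyrosine phosphatase, was higher in CFU-E of FL/FL mice (log2 change 1.88, adjusted p = 1.06e-06) and fell from 24.3, 24.9 and 18 CPM to 5.79, 10.1 and 7.24 CPM in PreCFU-E of Lepr-Cre mice (log2 change -1.52, SE 0.30, adjusted p = 0.00540). Baz2b and Cep128 took the same directions. Fabp5 was lower in the step (-0.72, adjusted p = 0.0409) and higher in Lepr-Cre mice, as were Ptger3, Tspan14, Cpne2, Myo5a, Slc9a3r1, Rnf144b, Ehd3 and Gbp5. Ptpn13 and Fabp5 passed without each library in turn. The other 10 did not pass without Lepr-Cre B, with adjusted p from 0.0515 (Tspan14) to 0.395 (Ehd3).

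**Figure D4:**
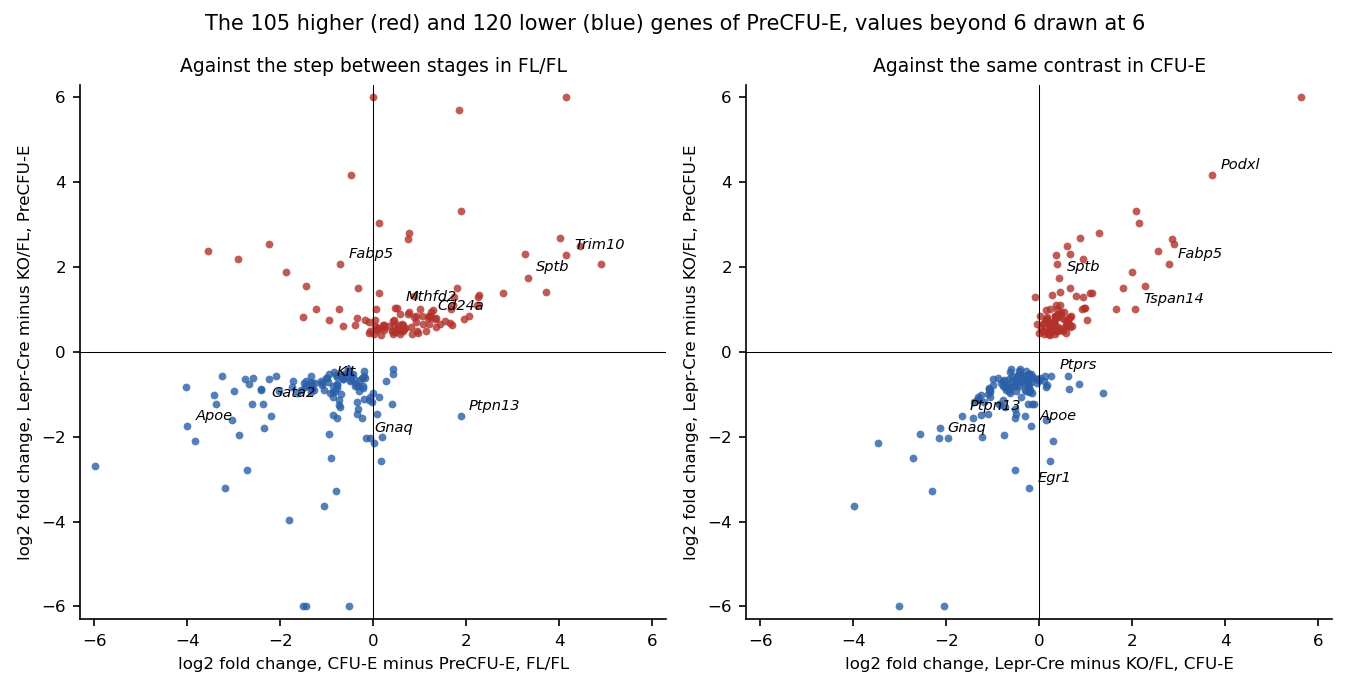
Log2 fold change of Lepr-Cre minus KO/FL PreCFU-E (vertical) for the 105 higher (red) and 120 lower (blue) genes, against the FL/FL step from PreCFU-E to CFU-E (left) and against the same genotype contrast in CFU-E (right), with values beyond 6 drawn at 6. On the left 61 of the 105 higher genes were called higher in the step and 75 of the 120 lower genes lower; on the right Apoe, Egr1 and Sptb lie near 0 in CFU-E.

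The position of each library on that step was read from the mean log2 CPM (offset 0.5) of the 965 rising minus the 998 falling genes, on a scale where FL/FL PreCFU-E average 0% and FL/FL CFU-E 100%. KO/FL PreCFU-E lay at 18.2%, 3.84% and 17% (13% ± 7.95, SD, n = 3) and Lepr-Cre PreCFU-E at 31.7%, 33.5% and 35.0% (33.4% ± 1.64, SD, n = 3). All Lepr-Cre libraries were above all KO/FL libraries, and KO/FL B was nearest to FL/FL. CFU-E lay at 92%, 91.1% and 96.8% in KO/FL and at 77.7%, 91.6% and 93.0% in Lepr-Cre mice. Since the FL/FL libraries chose the genes and set both ends, the other genotypes move inward on this scale by construction, and the values are given with no test. A shift of every cell along the step and a changed mix of cells within the sort gate cannot be told apart in these libraries.

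**Figure D5:**
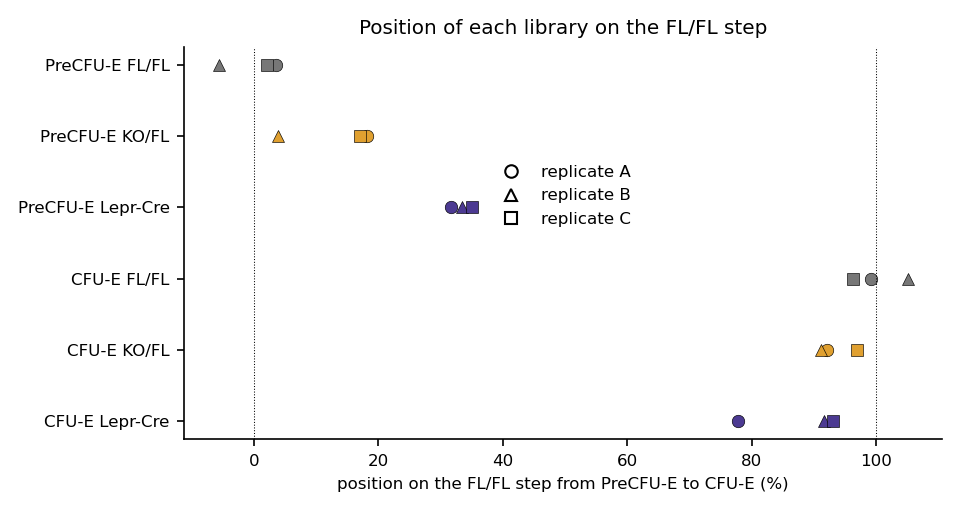
Position of each of the 18 libraries (points; replicates A, B and C as circles, triangles and squares) on the FL/FL step from PreCFU-E (0%) to CFU-E (100%), by stage and genotype (rows). The 3 Lepr-Cre PreCFU-E lie between 31.7% and 35.0%, above the 3 KO/FL PreCFU-E between 3.84% and 18.2%.

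The same contrast in CFU-E of the same mice called 103 of 10192 genes (1.01%), 30 higher (0.294%) and 73 lower (0.716%). Of these, 50 were also called in PreCFU-E, all in the same direction, which is 22.2% of the PreCFU-E calls and 48.5% of the CFU-E calls; the libraries are separate but the mice are the same. Of the higher genes tested in both stages 100 of 103 had a log2 fold change above 0 in CFU-E, and of the lower genes 104 of 117 had one below 0, beside 6283 of 9907 genes with the same sign in both stages among all those tested. Their medians in CFU-E were 0.41 and -0.49; genes picked for passing in PreCFU-E tend to be smaller in other libraries by that choice, so these are not compared with the PreCFU-E medians. Without KO/FL B of the CFU-E the count there was 19, with the replicate letter as a block 280, without KO/FL C 54 and without Lepr-Cre B 52.

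Genes that held in both stages included Spred1, Fabp5 and C2cd4a. Spred1 was at 102, 90.4 and 72.0 CPM in KO/FL CFU-E and at 42.2, 39.7 and 34.9 CPM in Lepr-Cre CFU-E (log2 change -1.18, SE 0.16, adjusted p = 0.000356). Fabp5 was at 24.7, 20.5 and 21 against 138, 189 and 133 CPM (log2 change 2.79, SE 0.24, adjusted p = 1.10e-05). In neither gene did the groups overlap. Mthfd2 (0.99, adjusted p = 0.00305), Pim1 (1.03, 0.0124), Osm (1.81, 0.0147), Fam132b (2.15, 0.0193), Myb (-0.71, 0.0227) and Kit (-0.60, 0.0486) also passed in CFU-E. C2cd4a was at 0.780, 0 and 0 against 16.8, 15 and 11.5 CPM (log2 change 5.64, adjusted p = 0.00266).

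Whether the genotype difference itself differed between stages was tested as an interaction over the 18 libraries. edgeR called 0 of 10732 genes (0%) without a block, with 569 at an unadjusted p under 0.05, and 61 with the mouse as a block, 36 with a higher and 25 with a lower difference in PreCFU-E. No other tool was run on it. Apoe fell in PreCFU-E but stood at 17.4, 29.5 and 25.7 CPM in KO/FL CFU-E and 21.7, 24 and 18.9 CPM in Lepr-Cre CFU-E, overlapping groups at a low level. The difference between stages was -1.58 (log2; adjusted p = 0.129 without and 5.24e-08 with the mouse as a block). Sptb had reached 667, 799 and 655 CPM in KO/FL CFU-E and 854, 1138 and 840 CPM in Lepr-Cre CFU-E, and its difference between stages was 1.36 with the block (adjusted p = 8.98e-08) and 1.34 without it (0.0609). Add2, Rhag and Cpox likewise had larger rises in PreCFU-E with the block, by 0.66 (adjusted p = 0.00122), 0.63 (0.00709) and 0.48 (0.0240), and without it did not pass (0.129, 0.496 and 0.474).

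Alleles near the engineered loci could differ between groups, so called genes were counted within 5 Mb of each locus. Around Kitl 1 of 14 tested genes was called, Dusp6, at 748 kb, and around Lepr (chromosome 4, 101717404 to 101815352) 0 of 27. The labels give both groups the same 2 Scf alleles. Chromosome 4 as a whole held 5 called of 618 tested genes (0.809%). Chromosome 10, which holds Kitl and Dusp6, had 12 of 479 (2.51%), beside 2.18% of all tested genes. Whether linked sequence moved Dusp6 was not tested. Reads of genes that overlap another gene cannot be assigned with certainty, since no source used here gives the strand setting of the counting: Fam132b overlaps Ilkap, Cacna1c overlaps Dcp1b, Amigo2 overlaps Pced1b, Junb overlaps Prdx2, Wars overlaps Wdr25, Itga4 overlaps Cerkl, Plvap overlaps Gtpbp3 and Slc16a6 overlaps Amz2 and Arsg.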

How the data were processed

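Total RNA (2 to 6 ng, integrity number at least 9.4) of 5000 to 10000 sorted cells per library was sequenced with a stranded low-input kit, per the labels' protocols. A heading in the same protocol names a nuclear extraction, while its text describes stained cells and total RNA, so whether whole cells or nuclei were sorted is not settled here. The submitters' processing notes name STAR 2.5.2b, HTSeq and the mouse build mm10; the annotation and strand setting were not given in the sources used here. Counts were deposited raw: the deposited table holds raw counts for 21967 genes, of which 5325 had no count in any library, beside RPKM values made by the authors. The gene length implied by the deposited RPKM values had a Spearman correlation of only 0.163 with the annotated gene span over 15424 genes, so no RPKM level is compared between genes in the text; the limma alternatives with a filter did use such levels, since they kept genes with a mean RPKM of at least 1.

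The counts of the 9 PreCFU-E libraries were fitted with edgeR 4.0.16 (R 4.3.3; TMM scaling, filterByExpr with a minimum count of 10 and a minimum total of 15, robust quasi-likelihood test, two-sided, Benjamini-Hochberg over all tested genes, threshold 0.05). CFU-E were fitted in the same way, and the interaction and the FL/FL step over all 18 libraries. Total counts per library are given in the report, and 3 libraries per group limit the precision. Alternatives were DESeq2 1.42.0, its size factors in edgeR, no filter, 6 or 18 libraries, a sex term, blocks, limma 3.58.1 on log2(RPKM + 1) and log2(RPKM + 0.1), and leaving out each library. Tested on simulated counts for the PreCFU-E comparison (10309 genes), the edgeR fit recovered 66% of 100 genes changed by a log2 of 1 and 86% of 100 changed by a log2 of 2, and 8.43% of its calls were false.

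Replicates carry letters in the labels. Deviations from the group means correlated for each same-letter pair of KO/FL and Lepr-Cre PreCFU-E (r = 0.128, 0.159 and 0.191). Other pairs gave r of -0.123 to -0.0385, but deviations within a group sum to 0, so this contrast is partly set by construction. No label says what a letter shares, and B is the female in each genotype, so the block also takes up sex. With these limits the letters were taken to pair the libraries in the block fits, and the mouse pairs the stages by design.

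Members and the 34 gene lists were chosen with earlier results of these data known. Named genes were Kitl and Kit, the 15 largest rises and falls with a mean of at least 5 CPM whose groups did not overlap, the 8 most abundant called genes per direction, called genes at 0 counts in a group, called list members, the 2 uncalled members nearest the threshold in each list, and the 5 strongest interactions per direction; of these the text gives those that carry a group, and 1 called list member is not reported here. Jak2 and the genes against the step were named after their values were seen. Positions are from GENCODE (19609 genes matched by symbol and 242 by an older name) and promoters from RefSeq GRCm38.p6.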

Additional observations from a re-analysis of the deposited data

Results flagged for a closer look

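A group of genes had a genotype difference that itself differed between PreCFU-E and CFU-E by edgeR's interaction test with the mouse as a block (adjusted p under the threshold of 0.05), and none of them passed that test without the block. The values below are the log2 fold change in PreCFU-E minus that in CFU-E, for some of the 61 genes that passed with the block. Erythroid genes had the larger rise in PreCFU-E: Trim10 by 2.04, Sptb by 1.36, Add2 by 0.66, Rhag by 0.63, Abcb10 by 0.59 and Cpox by 0.48. In CFU-E the levels were higher than in PreCFU-E in both genotypes, such as Abcb10 at 183, 176 and 199 CPM in KO/FL and 189, 177 and 231 CPM in Lepr-Cre mice. Other genes that rose in PreCFU-E and had a higher log2 fold change there included Rgcc at 1.88, Abcg4 at 1.4, Cpd at 1.24, Lpcat1 at 0.85, Gab1 at 0.79 and Pdk1 at 0.71. In CFU-E Abcg4 (-0.10) and Pdk1 (-0.05) lay just below 0, and Rgcc, Cpd, Lpcat1 and Gab1 lay above it.

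Genes that fell in PreCFU-E and had a lower log2 fold change there than in CFU-E included Egr1 at -2.78, Apoe at -1.58, S100a10 at -1.57, Ptprs at -0.78, Il17ra at -0.67 and Grb2 at -0.60. In CFU-E Egr1 (-0.22), Apoe (-0.17) and Il17ra (-0.04) lay below 0, and S100a10 (0.85), Ptprs (0.25) and Grb2 (0.01) above it, none of them called. S100a10 fell by a log2 fold change of -0.76 in PreCFU-E, so its value holds both a fall and a rise. Egr1 was low in CFU-E of both genotypes, where KO/FL libraries held 1.67, 1.89 and 2.00 CPM. Tspan14, at -1.10, was higher in Lepr-Cre mice in both stages, more so in CFU-E. Ptprs, a receptor tyrosine phosphatase, was the 1 called gene whose libraries separated in opposite directions. Its log2 fold change was -0.56 in PreCFU-E (220, 251 and 198 against 160, 153 and 142 CPM). In CFU-E it was 0.25 (56.4, 55.1 and 54.9 against 76.6, 60.1 and 60.7 CPM) and not called (adjusted p = 0.588). Libraries that did not overlap were found for 18.5% of all tested genes in PreCFU-E.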

How the results depend on the processing

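No call of a named gene turned into a call in the opposite direction under any alternative run. The sign of genes that were not called was not compared. The 225 PreCFU-E calls became 394 with no filter on low counts, 344 with DESeq2, 840 with the replicate letter as a block, 55 with limma on log2(RPKM + 1), 50 with limma on log2(RPKM + 0.1) and 36 with limma and no filter. They ranged from 92 to 218 without 1 library, the lowest without KO/FL B. The counts with DESeq2's size factors (221), 18 libraries (188), 6 libraries (207) and a sex term (302) lay within 1.5 times. Of the 103 called genes among those named, 103 passed with the block, with DESeq2 and with no filter, 102 with DESeq2's size factors, and 83 with all 18 libraries. With limma on log2(RPKM + 1) 25 passed and 39 did not, and with limma and no filter 20 passed and 83 did not. Leaving out 1 library, 413 calls held and 205 were lost over the 6 fits. Of 78 not called, 47 passed with the block. Higher genes made up 46.7% of calls, and 54.2% with the block.

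The 103 CFU-E calls became 244 with no filter and 280 with the replicate block, and ranged from 19 to 101 without 1 library. The 0 interaction calls became 36 with no filter and 61 with the replicate block (mouse), and ranged from 0 to 3. The 1963 calls of the step ranged from 1342 to 1684. The cause of these shifts was not tested. How depth limits the calls was not tested by level; KO/FL A was the shallowest library at 3541066 counts.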
